A study of Mus musculus with 12 samples.

Results

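The facilitative sugar transporters described here are 8 genes of the Slc2a (GLUT) family, Slc2a1, Slc2a2, Slc2a3, Slc2a4, Slc2a5, Slc2a8, Slc2a10 and Slc2a12, out of 18193 genes that the Affymetrix mouse array names. They were chosen by name, and 16 probe sets (groups of short probes for a transcript) carry them. The RNA had been taken from liver, from the vastus lateralis muscle and from gonadal white adipose tissue (WAT) of Ghsr KO females (C57BL/6 background, 12 weeks old) killed 6 h after an intraperitoneal injection of unacylated ghrelin (UAG) at 20 nmol/kg or of saline. Each tissue had 2 UAG and 2 saline arrays, 12 in all, and every mouse, saline controls included, lacked the ghrelin receptor Ghsr, so no wild-type level was measured. The labels do not tie arrays to mice, and p-values therefore measure the spread between these samples only.

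GLUT proteins let hexoses cross the plasma membrane or the membranes of vesicles down a gradient, without using energy. Slc2a1 (GLUT1) gives most cells their basal glucose uptake, Slc2a2 (GLUT2) is the low-affinity carrier of hepatocytes and beta cells, and Slc2a3 (GLUT3) is the high-affinity carrier best known from neurons and also found in leukocytes. Slc2a4 (GLUT4) waits in vesicles of fat and muscle cells until insulin brings it to the surface, and Slc2a5 (GLUT5) carries fructose. Slc2a8, Slc2a10 and Slc2a12 are less studied family members, Slc2a8 being held largely inside cells.

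Values are intensities, after values below 30 were set to that floor, so levels at 30 have no order. A level of one probe set is not comparable with that of another. For genes with more than 1 probe set the brightest comes first. In bulk tissue, fewer cells of a type and less RNA per cell cannot be told apart.

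The tissues carried their defining markers, and markers of other cell types differed between arrays. The 7 hepatocyte markers measured were bright on every liver array, with sums of 85584 to 118757. White adipocyte markers summed to between 47512 and 56845 in WAT and to between 25740.4 and 40315 in muscle, so fat markers were bright on the muscle arrays too. The summed level of 7 brown adipocyte markers in WAT was 4223 and 2121 on UAG arrays, against 20226 on saline replicate 1 and 3047 on saline replicate 2. The 7 smooth muscle markers summed in WAT to 7005 and 7448 on UAG arrays, against 6435 and 35940.5 on saline arrays, saline replicate 2 being the high one. Correlations between arrays of a tissue lay between 0.925 and 0.962 (description over probe sets, which are not replicates). The single Ghsr probe set was at or below the floor on 12 of 12 arrays, which does not check the knockout, as every group carries it.

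The promoters of 3 genes with unlike patterns are shown: Slc2a2 was at the floor outside liver, Slc2a1 was above it on all 12 arrays, and Slc2a5 is the fructose carrier whose UAG and saline means differed by over 2-fold in WAT and muscle. Both Slc2a5 differences fell short of 2-fold without saline replicate 1, its highest array in each of these tissues. Each line gives the 250 bases before the RefSeq start (GRCm38.p6, 5′ to 3′ on the strand of the gene, all + strand), with GC boxes (GGGCGG) and CCAAT boxes (CCAAT), on either strand, in capitals.
Slc2a2, chr3:28697653-28697902: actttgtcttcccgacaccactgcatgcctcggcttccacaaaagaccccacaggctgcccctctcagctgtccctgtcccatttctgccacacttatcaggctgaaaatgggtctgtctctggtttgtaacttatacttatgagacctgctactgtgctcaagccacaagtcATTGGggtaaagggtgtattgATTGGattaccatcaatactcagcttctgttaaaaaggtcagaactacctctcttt
Slc2a1, chr4:119108495-119108744: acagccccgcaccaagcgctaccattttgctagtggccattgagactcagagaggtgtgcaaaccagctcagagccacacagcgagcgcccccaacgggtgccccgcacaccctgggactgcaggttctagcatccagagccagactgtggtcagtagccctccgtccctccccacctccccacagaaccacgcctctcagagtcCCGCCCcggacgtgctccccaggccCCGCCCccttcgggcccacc
Slc2a5, chr4:150119094-150119343: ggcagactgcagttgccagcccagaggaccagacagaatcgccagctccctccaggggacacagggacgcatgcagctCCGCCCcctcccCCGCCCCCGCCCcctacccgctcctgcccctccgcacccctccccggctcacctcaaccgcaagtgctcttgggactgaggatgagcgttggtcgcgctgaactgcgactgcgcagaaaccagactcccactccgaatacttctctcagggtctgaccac
The Slc2a2 window held 2 CCAAT boxes and no GC box, the Slc2a1 window 2 GC boxes and the Slc2a5 window 3 GC boxes, with no CCAAT box in either. Their GC content was 47.2% for Slc2a2, 66.4% for Slc2a1 and 66.4% for Slc2a5, beside a median of 52.4% over all 32851 promoter windows. A GC box was in 32.7% of all windows of this length and a CCAAT box in 33.8%, so both are common and the matches are a description only. Neither these windows nor those of Slc2a8, Slc2a10 and Slc2a12 held TATAAA (in 12.4% of all windows), CACGTG (6.02%) or the HNF1 half-site GTTAAT (6.43%).

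The first question was where each carrier was expressed. Slc2a2 marked liver, Slc2a4 muscle and WAT, and Slc2a3 and Slc2a12 were above the floor in WAT and muscle and at it in liver, while Slc2a1 and Slc2a8 were measured in every tissue within a narrow range. Over the 12 arrays, limma called 5 of 8 transporters between WAT and muscle (49.9% of all probe sets tested), 6 between WAT and liver (59.2%) and 5 between muscle and liver (61.5%), so the shares are near those of any probe set. All 8 passed the intensity filter of that fit, Slc2a2, Slc2a3 and Slc2a12 through the tissues where they are high.

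**Figure D1:**
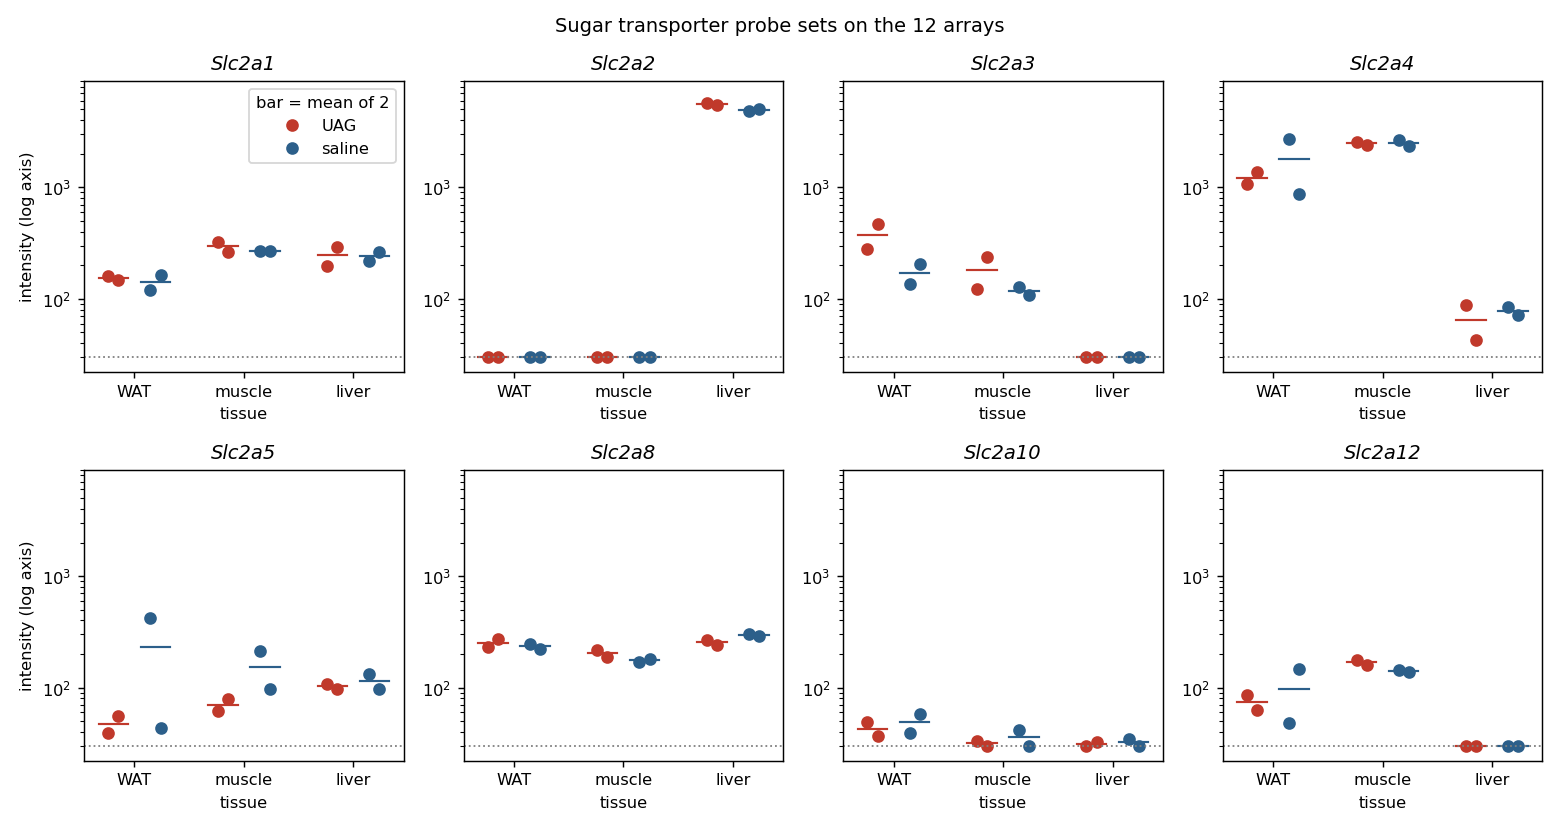
Intensity (log axis) of the brightest probe set of each transporter on the 12 arrays, by tissue, with UAG in red, saline in blue, a bar at the mean of 2 arrays and a dotted line at the floor of 30. Slc2a2 stands at 4838 to 5761 in liver and at the floor elsewhere, and Slc2a5 has a single WAT array at 419 above 3 between 38.9 and 55.0.

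Slc2a2 had 5761 and 5532 on UAG arrays and 4838 and 5078 on saline arrays of liver, and lay at the floor on all 8 arrays of WAT and muscle. Its liver level was at least 176-fold higher than in either tissue (log2 differences of -7.46 for WAT over liver and -7.46 for muscle over liver, limma adjusted p = 5.01e-13 and 4.76e-13). The floor takes away the spread of the 8 other arrays, so these p-values overstate the precision.

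Slc2a4 had a mean of 1508 ± 824 in WAT, 2483 ± 143 in muscle and 71.5 ± 20.5 in liver (SD, n = 4). Muscle stood 36.0-fold over liver (log2 difference 5.17, SE 0.31, adjusted p = 9.62e-08) and WAT 19.9-fold (4.31, adjusted p = 5.31e-07). Its second probe set was at the floor on all liver arrays and put muscle at least 71.0-fold and WAT at least 33.5-fold higher. The order of muscle over WAT was less firm: the WAT over muscle log2 difference was -0.86 (SE 0.31, adjusted p = 0.0414) and the second probe set gave -1.08 (adjusted p = 0.0159), but the call was lost in 12 of 20 alternatives, including 9 that left out 1 array (adjusted p up to 0.122), and WAT saline replicate 1, at 2705, lay above every muscle array.

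Slc2a3 averaged 273 ± 144 in WAT and 149 ± 59.7 in muscle (SD, n = 4) and was at the floor on every liver array. WAT had 137 and 204 on saline arrays, and 280.2 and 469 on UAG arrays. Muscle had 128 and 109 on saline arrays, and 122 and 238 on UAG arrays, so these means also carry the treatment difference. WAT was at least 8.20-fold and muscle at least 4.73-fold over liver (adjusted p = 1.10e-06 and 1.09e-05). The next probe set, also at the floor in liver, put WAT at least 2.37-fold and muscle at least 2.24-fold over liver. The muscle call of the brightest was lost with a floor of 100 (adjusted p = 0.198) and with the mean of all probe sets (adjusted p = 0.170). The floor again takes away the spread of the liver arrays. Between WAT and muscle the brightest probe set gave a log2 difference of 0.79 (SE 0.24, adjusted p = 0.0179), which 8 of 20 alternatives did not call (adjusted p up to 0.0834 without WAT saline replicate 2, WAT UAG replicate 2, muscle saline replicate 2 or muscle UAG replicate 1), and the next probe set gave 0.083 (adjusted p = 0.738), so the probe sets disagree on that order.

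Slc2a12 ran between 47.6 and 146 in WAT and between 138 and 177 in muscle, and lay at the floor in liver. Muscle was at least 5.11-fold over liver (adjusted p = 2.98e-05) and WAT at least 2.61-fold (0.00168), and WAT was below muscle by a log2 difference of -0.97 (SE 0.29, adjusted p = 0.0157), a call lost without WAT UAG replicate 2 or muscle UAG replicate 1 (adjusted p up to 0.0605) and with no filter. The WAT over liver call was lost with a floor of 100 (adjusted p = 0.420) and with the mean of all probe sets (adjusted p = 0.123), and here too the liver arrays have no spread above the floor.

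Slc2a1 averaged 148 ± 19.9 in WAT, 282 ± 28.1 in muscle and 243 ± 43.0 in liver (SD, n = 4). WAT was the low tissue, 1.91-fold below muscle (log2 difference -0.93, SE 0.16, adjusted p = 0.000598) and 1.63-fold below liver (-0.71, adjusted p = 0.00270), and all 20 alternatives kept both calls. Muscle and liver did not differ beyond their spread by this probe set (0.23, 95% interval -0.13 to 0.58), and a dimmer one put muscle below liver (-0.41, adjusted p = 0.0397). All 3 probe sets had WAT below muscle, the dimmest with an adjusted p of 0.0788.

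Slc2a8 averaged 243 ± 22.1 in WAT, 189 ± 21.5 in muscle and 276 ± 27.7 in liver. Muscle was the low tissue, below liver by a log2 difference of -0.55 (SE 0.11, adjusted p = 0.00140) and with WAT above it by 0.36 (adjusted p = 0.0198). The second call was lost without WAT saline replicate 1, WAT UAG replicate 2 or muscle UAG replicate 2 (adjusted p up to 0.0893). WAT and liver did not differ beyond their spread (-0.18, 95% interval -0.43 to 0.063).

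Slc2a5 averaged 139 ± 187 in WAT, 112 ± 67.6 in muscle and 109 ± 16.1 in liver (SD, n = 4), and limma called none of its tissue contrasts (log2 differences of -0.33, -0.45 and -0.12, adjusted p between 0.509 and 0.869). Without WAT saline replicate 1 it called WAT below muscle (-1.15) and below liver (-1.27, adjusted p = 0.00699 and 0.00322). The median over 4 arrays was 49.3 in WAT, 87.7 in muscle and 103 in liver. Liver, where fructose is phosphorylated, was the tissue with the narrowest spread of this carrier. Khk, ketohexokinase, the enzyme that takes up the next step, was 21.6-fold lower in WAT than in liver and 18.8-fold lower in muscle (adjusted p = 2.14e-09 and 2.66e-09).

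Slc2a10 was dim everywhere, at no more than 57.7 on any WAT array, 41.8 on any muscle array and 34.7 on any liver array. WAT over liver gave a log2 difference of 0.50 (SE 0.18, adjusted p = 0.0324), which 8 of 19 alternatives did not call, among them those without WAT saline replicate 2, WAT UAG replicate 1, liver saline replicate 2 or either UAG array of liver (adjusted p up to 0.126). Its second probe set was at or near the floor, as was that of Slc2a12.

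The genes whose pattern over the 12 arrays lay closest to the tissue-bound transporters were found by the root mean square difference of centred log2 values among 12593 genes. For Slc2a2 they were Itih3, a serum inhibitor subunit, the urea cycle enzyme Otc and the esterase Aadac, at 0.058, 0.063 and 0.096. For Slc2a4 they were Hk2, the hexokinase of muscle and fat (0.37), Gys1, the glycogen synthase of muscle (0.38), and Ppp1r1a, a phosphatase inhibitor (0.43). Hk2, like Slc2a4, was highest of the WAT arrays on saline replicate 1 (1226 and 1297 on UAG arrays, against 1941 and 615 on saline arrays). For Slc2a3 the nearest were Gjc1, Eepd1 and Adgrg1 (0.36, 0.37 and 0.38) and for Slc2a12 Hacd1, Mfap3l and Vezf1 (0.24, 0.26 and 0.27). Values were floored first, which left Slc2a2 without spread in WAT and muscle, and Slc2a3 and Slc2a12 without spread in liver. Genes at the floor on the same arrays have no spread there either, so small distances partly reflect the floor and are not comparable between transporters.

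The second question was what UAG did to each carrier within a tissue. By the ratio of mean intensities, the rule of the study, Slc2a3 was higher and Slc2a5 lower at least 2-fold in WAT, Slc2a5 was lower in muscle, and no transporter reached 2-fold in liver. Of the transporters past the filter, 2 of 7 in WAT did so (1.97% of all probe sets there), as did 1 of 7 for muscle (0.53%) and 0 of 6 for liver (0.771%). limma called none of the 8 in any tissue. The share of all probe sets called was 0% for WAT, 0% for muscle and 0.00397% for liver. Before adjustment, 1 transporter had a p under 0.05 in WAT (6.81% of all probe sets), 1 in muscle (1.86%) and 0 in liver (3.65%). UAG and saline arrays did not overlap for 1 transporter in WAT (37.3% of all probe sets), 3 in muscle (22.7%) and 2 in liver (30.5%). The median log2 difference of the transporters was -0.18 for WAT, 0.13 for muscle and -0.097 for liver, beside 0.012, -0.0020 and 0.0011 over all probe sets.

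**Figure D2:**
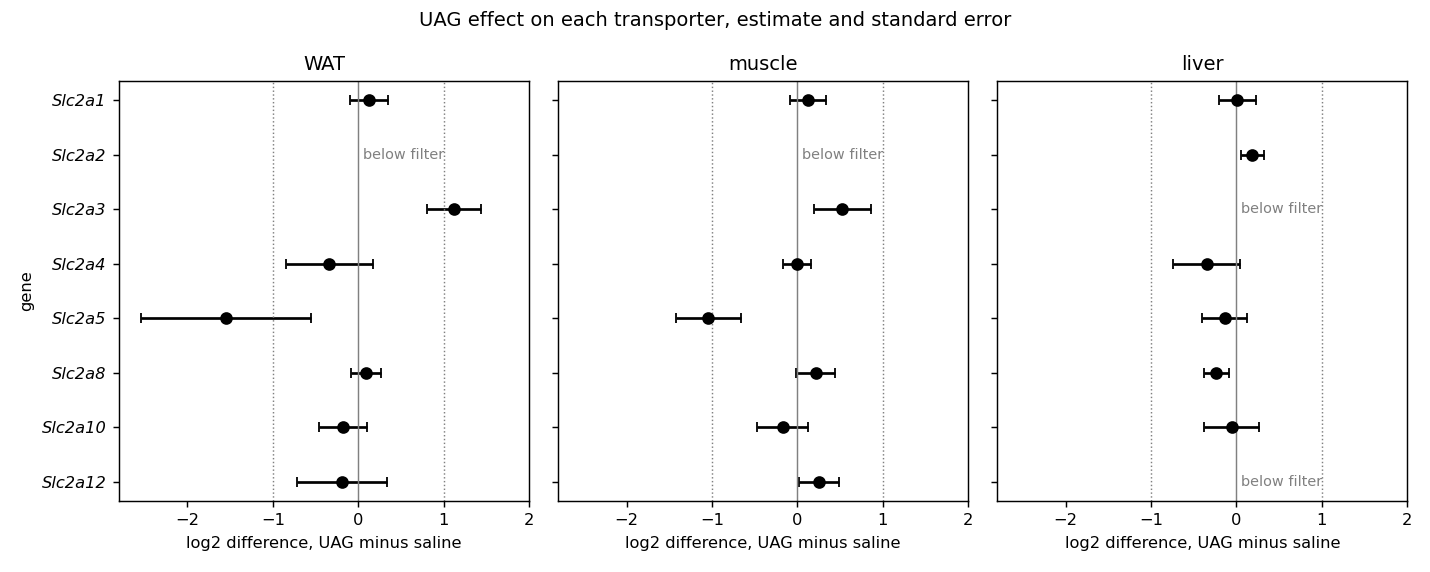
Log2 difference of UAG minus saline arrays (x axis) for the brightest probe set of each transporter in WAT, muscle and liver, with the limma standard error as bars (n = 2 each) and dotted lines at 2-fold. Slc2a3 in WAT (1.12) and Slc2a5 in WAT (-1.55) and muscle (-1.04) lie outside the dotted lines, and genes below the intensity filter have no point.

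Slc2a3 was measured in WAT at 280.2 and 469 on UAG arrays, against 137 and 204 on saline arrays. Both UAG arrays lay above both saline arrays, at a ratio of 2.20 and a log2 difference of 1.12 (SE 0.32, 95% interval 0.33 to 1.90), with a limma adjusted p of 0.644. Its second informative probe set had 75.05 and 120 on UAG arrays and 51.2 and 55.8 on saline arrays, a ratio of 1.82 with the groups apart. The ratio of the brightest probe set ran between 1.65 and 2.76 when 1 WAT array was left out, and without UAG replicate 2 (1.65) or saline replicate 1 (1.84) it was under 2-fold. In muscle the brightest probe set had 122 and 238 on UAG arrays and 128 and 109 on saline arrays, which overlap (ratio 1.52, and 1.03 without UAG replicate 2). The second had 78.5 and 85.8 against 48.6 and 62.3, which do not (ratio 1.48, limma adjusted p = 1.00).

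Leukocytes carry Slc2a3. The neutrophil markers summed to 364 and 7256 on UAG arrays of muscle, against 311 and 744 on saline arrays. UAG replicate 2 was the highest array for this sum and for Slc2a3 (238). Saline replicate 2, the next highest in the sum, had the lowest Slc2a3 value (109). All 7 markers had a positive log2 difference there, 5 of them past 2-fold (0.53% of all probe sets), but 0 of those with groups apart. In WAT the 7 neutrophil markers summed to 277 and 229 on UAG arrays, against 249 and 837 on saline arrays. Ngp, Camp and Mmp8 were at the floor on all 4, and the 3 markers tested had a negative log2 difference. The 8 macrophage markers of WAT summed to 12955 and 12935 on UAG arrays, against 12297 and 12549.9 on saline arrays. Of these 8, 3 had a positive and 5 a negative log2 difference (median -0.015). In muscle all 8 macrophage markers had a positive log2 difference (median 0.39), with sums of 4079 and 5388 on UAG arrays, against 3026 and 4223 on saline arrays. The part of either cell type in the WAT and muscle levels of Slc2a3 was not tested.

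**Figure D3:**
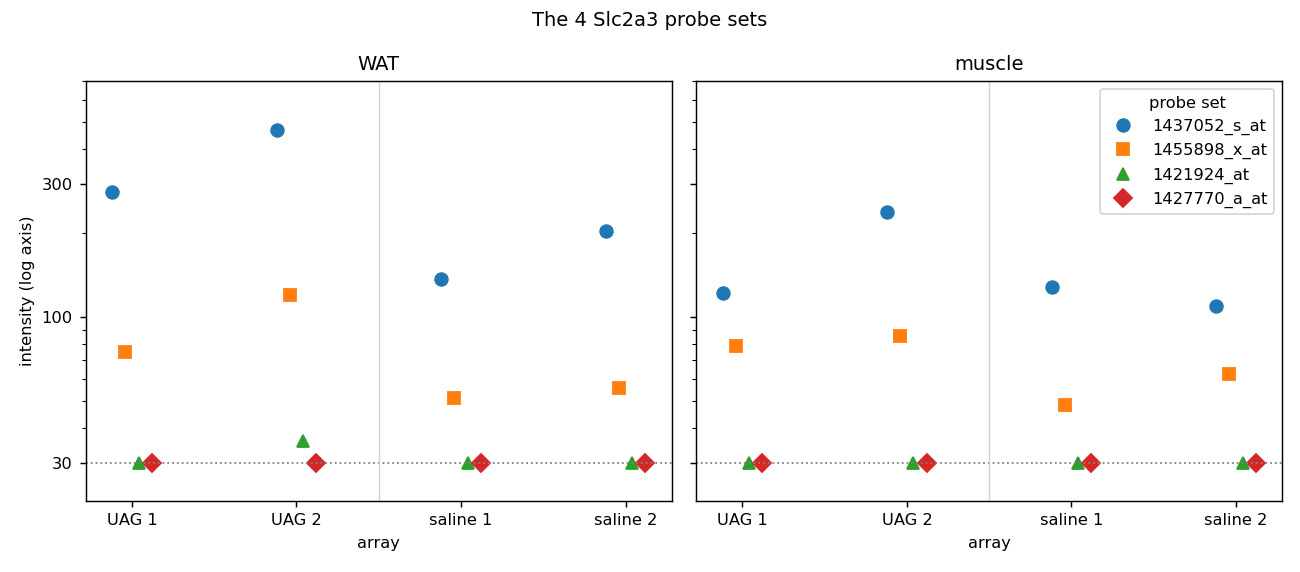
Intensity (log axis) of the 4 Slc2a3 probe sets on each array of WAT and muscle, UAG arrays left of saline arrays, with a dotted line at the floor of 30. The brighter pair is higher on both UAG arrays of WAT, and the other pair is at the floor on all but 1 array (36.1 on WAT UAG replicate 2).

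The 4 Slc2a3 probe sets differ in what they can show. The dimmer pair was at the floor on all arrays of muscle and liver, and in WAT 1 of its values, 36.1 on UAG replicate 2, was above it. The brighter pair carries the suffixes _s_at and _x_at, by which the maker marks probe sets that can match more than 1 transcript, so a share of related transcripts in their signal cannot be told apart. The brightest probe sets of Slc2a10 and Slc2a12 also carry _s_at, so the same limit holds for their levels.

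Slc2a5 in WAT had 38.9 and 55.0 on UAG arrays, against 419 and 43.6 on saline arrays. Only saline replicate 1 was high, and saline replicate 2 lay between the UAG arrays. The ratio was 0.203 (log2 difference -1.55, SE 0.99, limma adjusted p = 0.809), and without saline replicate 1 it was 1.08. Cidea, a lipid droplet gene of brown fat, stood at 865 and 452 on UAG arrays, against 5614 on saline replicate 1 and 619.8 on the other saline array. Ucp1, the uncoupling protein of brown fat, was at 1677 and 503 on UAG arrays, against 6772 and 702 on saline arrays, and Ckm, muscle creatine kinase, at 30 and 40.7, against 613 and 35.1. All 7 brown adipocyte markers had a negative log2 difference in WAT, 6 of them past 2-fold, but only 3 of those with groups apart. Of 7 skeletal fibre markers tested, 6 were lower. Of the 8 on the array, 6 were lower past 2-fold, only 1 of them with groups apart. Their sums were 1319 and 1635 on UAG arrays, against 3767 and 948 on saline arrays. Of all probe sets in WAT 1.97% were past 2-fold, and limma called none of these markers. Their part in the Slc2a5 level was not tested.

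In muscle, Slc2a5 had 61.2 and 78.7 on UAG arrays, against 211 and 96.6 on saline arrays. The groups did not overlap, at a ratio of 0.455 and a log2 difference of -1.04 (SE 0.38, 95% interval -1.90 to -0.18, limma adjusted p = 1.00). Saline replicate 1 set the size, as the ratio was 0.724 without it. The sum over the 7 genes of the brown marker list was highest on that array, at 19847 and 14865 on UAG arrays, against 22428 and 18681 on saline arrays. Most of it came from list members other than Ucp1, Cidea and Dio2, so in muscle it is not a level of brown fat alone. Cidea was at 2093 and 1867, against 4040 and 2739, and Ucp1 at 2558 and 1043, against 3713 and 3348. Of the 7 markers, 5 had a negative and 2 a positive log2 difference, Dio2 was highest on saline replicate 2 (80.7 and 37.5 on UAG arrays, against 113 and 178 on saline arrays), and Cox8b, Cox7a1 and Ppara were highest on UAG replicate 1. Their part was not tested here either. In liver, where Ucp1, Cidea and Dio2 were at the floor on all 4 arrays, Slc2a5 had 109 and 97.8 on UAG arrays, against 132 and 97.7 on saline arrays (ratio 0.899, log2 difference -0.14, 95% interval -0.75 to 0.47).

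**Figure D4:**
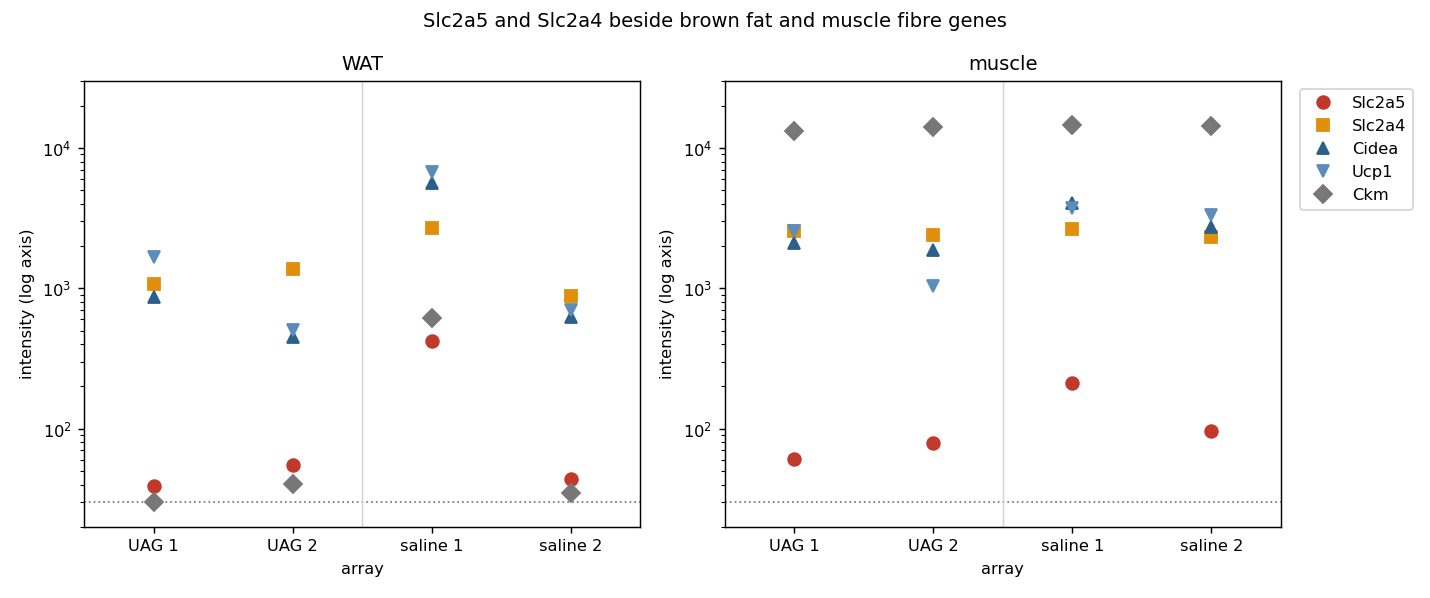
Intensity (log axis) of Slc2a5 and Slc2a4 beside the brown fat genes Cidea and Ucp1 and the muscle fibre gene Ckm on each array of WAT and muscle, UAG arrays left of saline arrays, with a dotted line at the floor of 30. All 5 genes are highest in WAT on saline replicate 1, where Slc2a5 is at 419 and Cidea at 5614.

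Slc2a4 in WAT shared that array. It had 1069 and 1382 on UAG arrays, against 2705 and 878 on saline arrays, so the UAG arrays lay between the saline arrays. The ratio was 0.684 (log2 difference -0.34, SE 0.51, adjusted p = 0.912), and 1.40 without saline replicate 1. The second probe set had 823 and 1212 on UAG arrays, against 1964 and 519 on saline arrays. In muscle its levels were close on all arrays, at 2547 and 2405 after UAG and 2651 and 2331 after saline (ratio 0.994, log2 difference -0.0062, 95% interval -0.37 to 0.36), which bounds a change in this tissue more closely than in WAT. In liver it was dim, at 87.7 and 42.4 on UAG arrays and 83.7 and 72.3 on saline arrays.

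Slc2a12, which like Slc2a4 is expressed in insulin-sensitive tissues, had 85.1 and 62.9 on UAG arrays of WAT, against 47.6 and 146 on saline arrays, which overlap (ratio 0.763, and 1.55 without saline replicate 2, the array with the highest smooth muscle marker sum). In muscle it had 177 and 159, against 143 and 138, groups that do not overlap at a ratio of 1.19 (log2 difference 0.25, SE 0.23, adjusted p = 1.00).

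Slc2a2 in liver was higher on both UAG arrays, at 5761 and 5532, against 4838 and 5078 on saline arrays. The ratio was 1.14 and the log2 difference 0.19 (SE 0.14, 95% interval -0.12 to 0.50, adjusted p = 1.00), and leaving out any liver array gave ratios of 1.11 to 1.17. The 7 hepatocyte markers were also all higher, with sums of 86053 and 118757 on UAG arrays, against 85584 and 87875 on saline arrays, and their part was not tested. Hnf4a and Foxa2, transcription factors of hepatocytes, were likewise above the floor in liver alone of these tissues, at 2637 and 2545 against 2244 and 2157 for Hnf4a, and 546 and 418 against 386 and 333 for Foxa2 (ratios 1.18 and 1.34, both apart, neither called).

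Slc2a1 and Slc2a8 had ratios between 0.851 and 1.16 in every tissue. Slc2a1 had 161 and 147 on UAG arrays of WAT, against 121 and 164 on saline arrays. In muscle it had 324 and 266, against 269 and 269, and in liver 198 and 294, against 219 and 262. The groups overlapped in every tissue, with ratios of 1.08, 1.10 and 1.025, and the groups of both dimmer Slc2a1 probe sets overlapped too. Slc2a8 had 229 and 272 on UAG arrays of WAT, against 248 and 223 on saline arrays. In muscle the UAG arrays were higher, at 219 and 188 against 169 and 181 (ratio 1.16), and in liver lower, at 265 and 242 against 304 and 293 (ratio 0.851), with log2 differences of 0.22 and -0.23. Slc2a10 had 48.6 and 36.6 on UAG arrays of WAT, against 39.4 and 57.7 on saline arrays, and its ratios were 0.878 in WAT, 0.877 in muscle and 0.961 in liver.

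Whether the UAG difference of a transporter differed between tissues was tested in the fit to 12 arrays. None of 8 was called for WAT over muscle (0.00377% of all probe sets), WAT over liver (0%) or muscle over liver (0%). Slc2a2, at the floor in WAT and muscle, could not be called for WAT over muscle. Slc2a3 and Slc2a12 were at the floor in liver, so their contrasts with liver repeat their UAG difference in WAT or muscle. Before adjustment, 1 transporter had a p under 0.05 for WAT over liver (4.86% of all probe sets), Slc2a3 with a difference of 1.12 (adjusted p = 1.00) whose liver levels sit at the floor, and 0 did so for WAT over muscle (3.57%) or muscle over liver (2.81%). The average over the 3 tissues takes their arrays as independent, though they may come from the same mice. In it, the UAG effect was called for 0 of 8 transporters (0.0302% of all probe sets). The largest were -0.91 for Slc2a5 (adjusted p = 0.939) and 0.55 for Slc2a3 (adjusted p = 0.822), and Slc2a3 alone had an unadjusted p under 0.05 (5.42% of all probe sets). Without WAT saline replicate 2, which leaves the high saline replicate 1 alone in its group, limma called Slc2a5 (adjusted p = 0.0308).

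The genes around the carriers were counted by list, and limma called no gene of the lists below between UAG and saline in any tissue. Of the other family members, Slc2a9, a urate carrier, was above the floor in liver alone, at least 13.5-fold over WAT and muscle (limma adjusted p = 1.28e-09 and 1.07e-09). It had 474 and 395 on UAG arrays of liver, against 364 and 397 on saline arrays. The floor takes away the spread of its WAT and muscle arrays, so these p-values overstate the precision. Slc2a13, a proton-coupled inositol carrier, was 2.86-fold higher in WAT than in muscle (adjusted p = 0.000202) and had 181 and 231 on UAG arrays of WAT, against 159 and 120 on saline arrays (ratio 1.47, apart). Slc2a6 lay at the floor throughout.

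Of 12 sodium-coupled and other sugar carriers on the array, 4 had a positive and 3 a negative log2 difference for WAT, 1 and 5 for muscle, and 7 and 1 for liver, among those past the filter. In WAT the largest were Slc5a3, a sodium and inositol cotransporter (1275 and 1355 on UAG arrays, against 827 and 1073 on saline arrays), and Slc45a1, with -0.22. In liver Slc45a1, a proton-coupled sugar carrier, had 167 and 155 on UAG arrays, against 70.6 and 94.0 on saline arrays (log2 difference 0.98, limma adjusted p = 1.00), and Slc5a1, a sodium-coupled glucose carrier, 61.3 and 39.6 against the floor on both saline arrays. In muscle the largest were Slc5a10 (-0.30) and Slc37a4 (0.15), the carrier of glucose 6-phosphate.

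Of the genes that phosphorylate hexoses or use fructose, 4 had a positive and 3 a negative log2 difference for WAT, 4 and 2 for muscle, and 3 and 6 for liver, and the largest were Hk3 (0.49) and Khk (-0.37) in WAT, Adpgk (0.45) and Hk3 (0.24) in muscle, and Hk1 (0.43) and Adpgk (-0.39) in liver. Of the 27 genes measured for the traffic of GLUT4 vesicles, the counts were 16 and 11 for WAT, 9 and 18 for muscle, and 14 and 12 for liver. In WAT the largest were Tbc1d4 (0.41) and Tbc1d1 (-0.40), the Rab GTPase-activating proteins that hold GLUT4 vesicles back, in muscle Ralgapa2 (-0.48) and Cbl (0.23), and in liver Trip10 (0.56) and Sort1 (-0.40), the sorting receptor of those vesicles.

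Of the regulators of these carriers, 7 had a positive and 8 a negative log2 difference for WAT, 8 and 7 for muscle, and 6 and 10 for liver. Klf15, a transcription factor that raises Slc2a4, had 715 and 911 on UAG arrays of WAT, against 574 and 417 on saline arrays, and 802 and 739 against 552 and 605 in muscle. Its groups were apart in both tissues, at ratios of 1.64 and 1.33 (limma adjusted p = 0.671 and 1.00). Ppargc1a, a coactivator of oxidative metabolism abundant in brown fat, had 32.8 and 50.2 on UAG arrays of WAT, against 120 on saline replicate 1 and 46.7 on saline replicate 2. Mlxipl, which encodes the carbohydrate response factor ChREBP, was lower on UAG arrays of muscle (607 and 620 against 882 and 700.1, ratio 0.776, apart), and in liver the largest were Foxa2 (0.41) and Thra (-0.37).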

How the data were processed

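RNA of each tissue was hybridized to Affymetrix mouse arrays, 2 per treatment and tissue. The deposited log2 values had been normalized by the authors. MAS5 is named in the submitters' processing notes, with no version. The study's methods describe normalization by quantiles, a signal threshold of 30 and a 2-fold change in group means. No source gives the log base, which was taken as 2 from the range of the values. Array annotation named 1 gene for 34945 of 45037 probe sets, several for 932 and none for 9160, and 64 control probe sets were left out. MAS5 detection calls were not used here. The number of arrays limits the precision.

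The log2 values were turned back into intensities with a floor of 30. limma 3.58.1 in R 4.3.3 was fitted with an intensity trend to the log2 values of each tissue, restricted to those probe sets whose mean intensity reached 30, and, for tissue contrasts, to the 12 arrays together with 6 group means. p-values were adjusted by Benjamini-Hochberg across the probe sets of each fit, with a threshold of 0.05. The study's methods give n = 2 for the mice behind the arrays, so the 3 tissues may come from the same mice. Tissues of 1 mouse cannot be tied, so arrays were taken as independent. If tissues share mice, p-values of the UAG effect averaged over tissues may be too small. The brightest probe set by mean over the 12 arrays stands for a gene. Every transporter is described. From each list of related genes those past limma, those changed 2-fold with groups apart, or else the 2 with the largest log2 difference are named, with genes mentioned as tissue comparisons or marker genes chosen after their values were seen. The transporters, lists, markers and motifs were chosen with earlier results of these data known. Promoters came from RefSeq (GRCm38.p6), where 6 of the 8 genes matched by symbol, and were read with Python 3.11.15. The fits were also run on simulated data with normal noise. These data held no single outlying arrays like those seen here, so they do not check the results. Alternatives were other floors, filters, normalizations, probe set means, a replicate block and each array left out.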

Additional observations from a re-analysis of the deposited data

Results flagged for a closer look

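The UAG difference of Slc2a8 ran in opposite directions in muscle and liver, with both UAG arrays above both saline arrays in muscle (219 and 188 against 169 and 181) and below them in liver (265 and 242 against 304 and 293). The difference of the log2 differences, muscle over liver, was 0.45 (SE 0.22, 95% interval -0.043 to 0.95), and the test of that difference did not call it (limma adjusted p = 1.00).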

How the results depend on the processing

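With 2 arrays per group, a single array decides several values, and the causes were not tested. The count of transporters past 2-fold in WAT, 2, was 1 with the mean of all probe sets (Slc2a5) and 1 where the groups must not overlap (Slc2a3), and it ran from 0 to 3 with 1 array left out (0 without saline replicate 1). In muscle the count of 1 was 0 with a floor of 100 and ran from 0 to 1. The WAT over muscle count of 5 was 3 with a floor of 100 (Slc2a1, Slc2a8 and Slc2a12), 2 with no filter (Slc2a1 and Slc2a8), and from 1 to 6 with 1 array left out (1, Slc2a1, without WAT UAG replicate 2). With 1 array left out the WAT over liver count of 6 ran from 5 to 7 and the muscle over liver count stayed at 5. With a floor of 100, and likewise with the mean of all probe sets, the counts were 4 and 4 (without Slc2a10 and Slc2a12 for WAT over liver, and without Slc2a3 for muscle over liver). The count for the mean UAG effect ran from 0 to 1. The Slc2a5 ratio in WAT was 1.08 without saline replicate 1. The tissue differences of Slc2a5, none called, changed sign with a floor of 100 (0.25 for WAT over muscle, 0.39 for WAT over liver, 0.14 for muscle over liver), without WAT saline replicate 2 (0.48 and 0.36) and without muscle saline replicate 2 (0.16). With 1 array left out they ran from -1.15 to 0.48, from -1.27 to 0.36 and from -0.40 to 0.16, and that of Slc2a10 for muscle over liver from -0.043 (without muscle saline replicate 1) to 0.20. limma called 0 transporters between UAG and saline within each tissue under every alternative.

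The labels give both treatments replicate numbers 1 and 2, but do not say that a number pairs mice, and same-numbered arrays deviated together with correlations of -0.14 in WAT, 0.11 in muscle and -0.038 in liver. With the replicate number as a block, limma called 0 transporters in each tissue (smallest adjusted p = 0.149 in WAT) and 22, 0 and 17 of all probe sets in WAT, muscle and liver, and the tissue counts were 5, 6 and 5. A crossed pairing in WAT, added after seeing the data, called 0 transporters and 0 probe sets. Over all alternatives and single transporters, the tissue differences kept their direction and side of the threshold in 408 cases, lost a call in 38, gained one in 4 and changed sign in 7. The UAG ratios moved by less than the spread between arrays in 187 cases and by more in 12. A change of direction was counted apart only for ratios past 2-fold with all arrays, and there was 1. Other ratios that changed direction, such as those of Slc2a4 and Slc2a12 in WAT, are within the first 2 counts. Slc2a10 had 2 of 4 muscle and 2 of 4 liver values at the floor, so its differences from those tissues depend on the floor.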
